A study of Mus musculus with 8 samples.

Results

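Genes for amino acid transporters were compared between WT mouse embryos and embryos mutant for Axin1 and Axin2 at embryonic day 6.5. They were taken by symbol from the solute carrier families SLC1, SLC3, SLC6, SLC7, SLC36, SLC38 and SLC43 in the deposited table, as symbols that end in the member's number, which gave 51 of its 19950 genes. Symbols with letters after that number, such as Slc6a20b, were not taken. SLC6 gave 15 of them, SLC7 12, SLC38 10, SLC1 6, SLC36 and SLC43 3 each, and SLC3 2. For 12 of the 51 the known substrate is something other than an amino acid of proteins, such as GABA, taurine, creatine, serotonin or noradrenaline, or is not settled.

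There were 4 WT and 4 Axin1;Axin2 mutant embryos, each sequenced whole as 1 bulk RNA library and numbered 1, 2, 4 and 5 within its genotype. Axin1 and Axin2 encode scaffold proteins that hold β-catenin in its destruction complex, so their loss releases canonical WNT signalling. The structures of the mutant alleles, the litters and the genetic background are not given in the labels used, and p-values therefore measure the spread between these embryos only. In bulk RNA, fewer cells of a type and less RNA per cell cannot be told apart.

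Reads assigned to genes came to 26615732 to 36778164 per library. Axin1 had scaled counts of 5274, 5140, 2963 and 4884 in WT replicates 1, 2, 4 and 5 and of 1721, 1984, 2203 and 2074 in mutant replicates 1, 2, 4 and 5 (limma adjusted p = 0.00269), and Axin2 had 236 to 310 in WT and 303 to 539 in the mutants (adjusted p = 0.19). Summed epiblast markers were 58656 to 61925 in WT and 8327 to 15223 in the mutants, and all 8 fell. Summed visceral endoderm markers overlapped between genotypes (193444 to 230982 and 165366 to 237263), and 1 of 11, Afp, fell. Summed extraembryonic ectoderm markers were 10796 to 16921 in WT. They were uneven in the mutants, with 4223, 17196.5, 10420 and 27039 in replicates 1, 2, 4 and 5. None of these 8 markers passed the test (0 at an unadjusted p under 0.05, 0 with edgeR and 0 with DESeq2). Summed mesoderm markers were 10330 to 16579 in WT and 33008 to 51816 in the mutants. Of 8 mesoderm markers 3 rose (Hand1, Foxf1 and Kdr), and 7 were higher at an unadjusted p under 0.05 with limma. Summed parietal endoderm markers were 38407 to 122880 in WT and 44136 to 57419.7 in the mutants, and 1 of 5, Lama1, fell. Those of maternal blood and leukocytes were 351 to 4640.2 and 3751 to 8819, and none of 5 tested passed (3 higher at an unadjusted p under 0.05, 0 with edgeR and 0 with DESeq2). Maternal decidua markers summed to 327 to 2099 in WT and to 16152, 5009, 41885 and 23932 in mutant replicates 1, 2, 4 and 5. Of 8 tested 4 rose with limma (Des, Col1a1, Col3a1 and Pgr), and Prl8a2, Prl3c1, Dcn and Ptgs2 did not pass. The largest mutant means in this sum were those of Des (9087) and Col1a1 (6862), ahead of Prl8a2 (3238). The part of mesoderm of the embryo in these values was not tested. WT replicates 2 and 5 lacked Y-linked RNA (summed at 14.2 and 0), and the other 6 libraries held at least 5243. Calls that change with these embryos are also given for 2 subsets: the Y-positive set of 6 libraries that held Y-linked RNA, and the trimmed set, which drops the mutants with the highest decidua sums, replicates 4 and 5, and keeps 2 that still lay above WT. In the Y-positive set 3 epiblast markers fell and 4 mesoderm and 1 decidua markers rose, and in the trimmed set 7 fell and 2 and 2 rose. All 8 epiblast markers were lower at an unadjusted p under 0.05 in both.

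Amino acids do not cross a membrane unaided, and each carrier family has its own range of substrates and its own driving force. SLC7 light chains exchange one amino acid for another and reach the cell surface only when paired with an SLC3 heavy chain, whereas the cationic carriers of the same family work alone. SLC38 and SLC1 carriers use the sodium gradient to concentrate glutamine, alanine, serine or glutamate, and some SLC36 and SLC38 carriers sit on lysosomes, where Slc38a9 senses arginine for the growth regulator mTORC1. In the early mouse embryo nutrients reach the epiblast through the surrounding visceral endoderm, before a placenta works.

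Promoter windows, from 250 bases before to 50 after a RefSeq gene start on GRCm38.p6, were matched for 36 of the 51 genes by symbol. They were searched on both strands for CTTTGAT and CTTTGTT, which are forms of the site of the WNT effectors of the TCF/LEF family, and for TGATGCAA, the core of the amino acid response element that ATF4 binds. CTTTGAT lay in the windows of 5 of the 36 genes, or 13.9% (Slc1a2, Slc38a10, Slc38a9, Slc6a16 and Slc7a1), against 4.29% of all 27025 genes with a window. A gene can have several windows, and the 36 genes had 56 against 32851 for all, so that these shares cover more sequence per gene in the transporters. CTTTGTT lay in another 5, also 13.9% (Slc3a1, Slc6a4, Slc6a9, Slc7a11 and Slc7a9), against 6.68% of all. Of these 10 genes 7 were tested between genotypes with limma and did not pass, and Slc1a2, Slc3a1 and Slc6a16 were not tested. A match is a description of letters only. TGATGCAA lay in the windows of 3 of the 36 (8.33%), against 1.03% of all genes, and the stretches around it are printed because the response to amino acid shortage is followed further on. Below them stand the whole windows of the 2 genes with large changes in either direction that had one, Slc38a4 and Slc1a3, which held none of the 3 motifs. All are 5′ to 3′ on the gene's strand, with the motif or its reverse complement in capitals.
Slc7a11, minus strand, chr3:50443633-50443699: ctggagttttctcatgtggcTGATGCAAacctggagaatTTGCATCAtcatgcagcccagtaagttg
Slc1a4, minus strand, chr11:20332690-20332737: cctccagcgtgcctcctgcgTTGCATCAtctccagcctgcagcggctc
Slc7a7, minus strand, chr14:54417918-54417965: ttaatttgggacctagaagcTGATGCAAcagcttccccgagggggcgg
Slc38a4, minus strand, chr15:97055907-97056206: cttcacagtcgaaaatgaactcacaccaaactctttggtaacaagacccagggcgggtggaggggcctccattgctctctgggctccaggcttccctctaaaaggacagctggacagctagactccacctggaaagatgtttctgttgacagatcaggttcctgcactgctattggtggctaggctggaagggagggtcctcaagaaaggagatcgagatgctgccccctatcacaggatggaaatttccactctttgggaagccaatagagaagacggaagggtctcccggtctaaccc
Slc1a3, minus strand, chr15:8710758-8711057: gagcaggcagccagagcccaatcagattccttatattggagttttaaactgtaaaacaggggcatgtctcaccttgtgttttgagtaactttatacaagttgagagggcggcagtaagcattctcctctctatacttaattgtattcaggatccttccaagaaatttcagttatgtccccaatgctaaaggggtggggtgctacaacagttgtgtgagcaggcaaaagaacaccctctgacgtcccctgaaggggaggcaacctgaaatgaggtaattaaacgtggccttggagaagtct

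Of the 51 genes, 41 could be tested, as they reached a scaled count of 10 in 4 or more libraries. A scaled count is the number of reads of a gene divided by the size factor of its library. In the mutants 3 rose (Slc38a4, Slc6a6 and Slc6a12) and 8 fell (among them Slc7a3, Slc1a3, Slc6a15, Slc7a4, Slc38a1, Slc7a7 and Slc6a11) at an adjusted p under 0.05 with limma. These are 7.32% and 19.5% of those tested, against 8.03% higher and 7.55% lower among all 15600 genes tested. The share that rose was thus near that of all genes, and the share that fell was above it. Slc6a11 reached the filter only through WT and so had to differ, and without it 7 of 40 fell (17.5%). Genes of this kind were not taken out of the share of all genes. Slc6a12 reached a scaled count of 10 in every mutant but in WT only in replicate 1, so its mutant values alone met the filter. The same held for Slc7a2, which in WT reached it only in replicate 2. Slc7a2 was called higher with edgeR, with DESeq2 and in the trimmed set. The remaining 30 did not pass, and 18 of the 41 differed by less than 1.2-fold. The median log2 fold change of the 41 was -0.13 and that of all genes -0.0018. The values of WT and mutant embryos did not overlap in 11 of the 41 (26.8%), against 22.4% of all genes, and 9 of these 11 were among the genes called. The 11 include Slc6a11, where the filter fixed this outcome. With edgeR 5 rose and 6 fell (all genes 8.08% and 7.49%), with DESeq2 5 and 9 (11.7% and 10.3%). The Y-positive set gave 1 higher and 3 lower (3.38% and 3.16%), and the trimmed set gave 3 higher and 5 lower (4.53% and 4.63%). Slc7a3, Slc1a3, Slc6a15 and Slc38a4 were called in each of these fits and in all 18 alternatives tried.

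**Figure D1:**
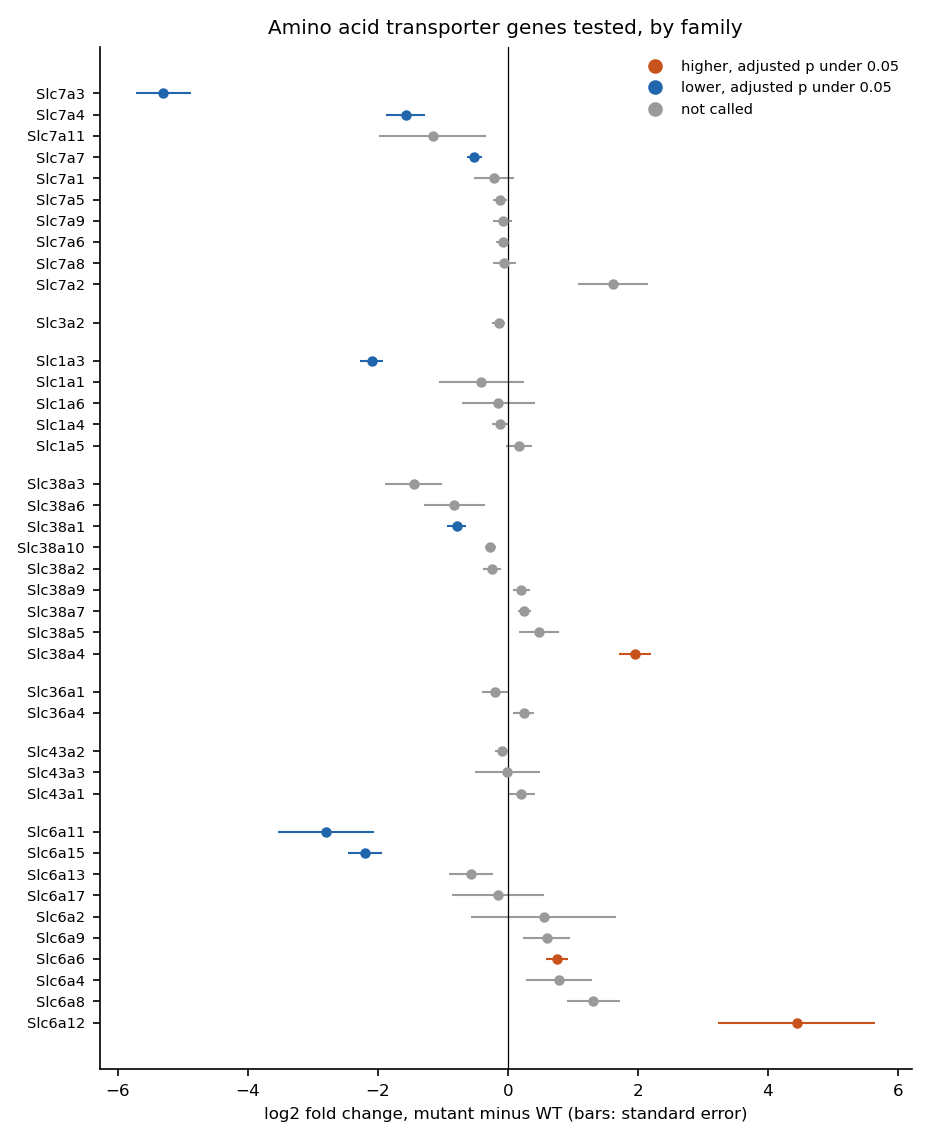
Log2 fold change, mutant minus WT, of 40 amino acid transporter genes tested, on the log2(scaled count + 1) scale, grouped by family. Points are limma estimates, bars are standard errors and colours give the call: Slc7a3 lies farthest to the left at -5.30 and Slc6a12 farthest to the right at 4.45, and most genes lie near 0.

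The cationic amino acid carriers held the largest difference. Slc7a3 carries arginine, lysine and ornithine into cells and lies on chromosome X (101079210 to 101086020, minus strand, GRCm38). Its scaled counts were 6168, 9227, 6344 and 6798 in WT replicates 1, 2, 4 and 5 and 206, 74.6, 165 and 394 in mutant replicates 1, 2, 4 and 5. The lowest WT embryo was far above the highest mutant. Slc7a3 fell 39.4-fold (limma log2 fold change -5.30, SE 0.42, adjusted p = 0.000114). Over all alternatives its log2 fold change stayed between -5.82 and -4.88, with -5.13 in the Y-positive set. Its fall went with that of the epiblast markers, 5.43-fold in summed level, and the part of cell composition in it was not tested.

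The cationic carriers closest to it by family did not pass. Slc7a1, the widespread carrier of this class, was 433 ± 131 (SD, n = 4) in WT against 383 ± 137 in mutants (limma adjusted p = 0.702). Slc7a2, which is inducible in immune and muscle cells, was low, at 5.57, 15.2, 6.93 and 8.29 in WT and 49.6, 43.3, 10.4 and 26.3 in the mutants. Mutant replicate 4 lay within the WT range, and the other 3 mutants lay above it. The mutant values alone met the filter, as WT reached a scaled count of 10 only in replicate 2. The difference did not pass with limma (log2 fold change 1.62, SE 0.53, adjusted p = 0.0729). It passed with edgeR (adjusted p = 0.0487), with DESeq2 (0.0272), without mutant replicate 4 (0.0205) and in the trimmed set (0.0298), within 0.0205 to 0.167 over all alternatives. Exons of Slc7a2 share 6.95% of their length with Gm26584 on the other strand.

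Levels per kb of exon allow a rough comparison of genes with each other. The length merges the exons of all annotated isoforms (3784 bases for Slc7a3 and 11530 for Slc7a1), so shares and ranks depend on it. The summed level per kb of Slc7a1, Slc7a2 and Slc7a3 was 1924 ± 385 scaled counts in WT. It was 92.3 ± 41.3 in the mutants, 20.9-fold apart. Slc7a3 made up 97.8 to 98.5% of that sum in every WT embryo. In the mutants its share was 70.5, 32.4, 55.8 and 68.1% in replicates 1, 2, 4 and 5, and that of Slc7a1 was 22.5 to 59.8% against 1.42 to 2.16% in WT. No share in a mutant embryo reached the WT range of the same gene. These shares describe RNA and say nothing of protein or transport.

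**Figure D2:**
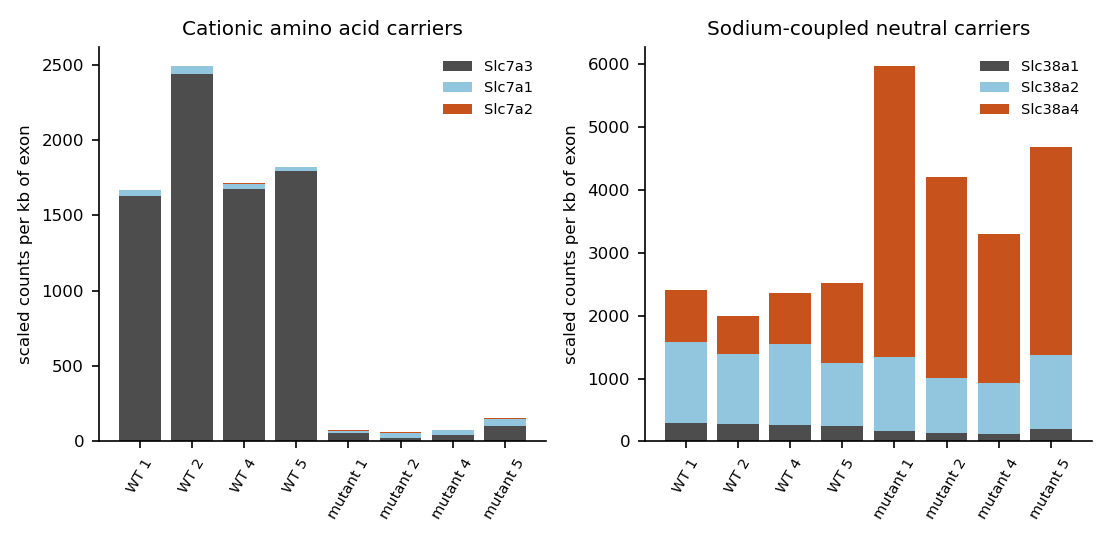
Scaled counts per kb of exon of the cationic carriers Slc7a3, Slc7a1 and Slc7a2 (left) and of the sodium-coupled neutral carriers Slc38a1, Slc38a2 and Slc38a4 (right), stacked, 1 bar per embryo on linear axes from 0. The summed level of the cationic carriers is 60.8 to 153 in the mutants against 1667 to 2493 in WT, and Slc38a4 makes up most of the right-hand sum in each mutant.

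Slc7a4 has the sequence of a cationic carrier but no settled transport activity (chromosome 16, 17572018 to 17583214, minus strand). It was low, with 37.1, 56.8, 60.6 and 55.6 in WT and 15.1, 23, 15.1 and 14.9 in the mutants. All 4 mutants were below all 4 WT embryos. Slc7a4 fell 2.97-fold (limma log2 fold change -1.57, SE 0.29, adjusted p = 0.00737). The call was lost in the Y-positive set (log2 fold change -1.45, adjusted p = 0.0886) and in the trimmed set (-1.42, 0.0569), within 0.000293 to 0.0886 over all alternatives, and P2rx6 shares 13.3% of its exon length on the other strand. Slc7a14, a related lysosomal protein, did not pass the filter and had 55 reads over the WT libraries and 11 over the mutants, a ratio of 4.69 after scaling with a 95% counting interval of 2.43 to 9.93.

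Among the heterodimeric exchangers only 1 light chain of the 6 tested, Slc7a7, passed the test. Slc3a2, the heavy chain that carries most light chains to the surface, had the highest level per kb of all 51 genes in WT (3513 ± 320.2) and 3205 ± 390 in the mutants, and its scaled counts differed 1.10-fold (limma adjusted p = 0.409). Slc7a5, which brings in leucine and other large neutral amino acids, was 7440.2 ± 296 in WT and 6888 ± 1200.3 in the mutants (scaled counts, adjusted p = 0.492). Slc7a8, with a similar range, was 7561 ± 1512 and 7278 ± 1348 (adjusted p = 0.887), and Slc7a6 was 2954 ± 245 and 2811 ± 336 (adjusted p = 0.671). These 4 genes were within 1.10-fold between genotypes.

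Slc7a7 exports cationic amino acids in exchange for neutral ones and sodium (chromosome 14, 54369442 to 54417780, minus strand). Its scaled counts were 6564, 6615, 6981 and 6581 in WT and 4564, 6014, 4193 and 4146 in the mutants. The WT embryos lay close together, and mutant replicate 2 lay nearest to them. Slc7a7 fell 1.43-fold (limma log2 fold change -0.52, SE 0.11, adjusted p = 0.0147). The call was lost in the Y-positive set, where the log2 fold change was as large (-0.53, adjusted p = 0.0977), and in the trimmed set, where it was smaller (-0.35, adjusted p = 0.0941). Over all alternatives the adjusted p ran from 0.000719 to 0.0977. Exons of Oxa1l on the other strand share 6.998% of its length.

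Slc7a9 and its heavy chain Slc3a1, the pair that takes up cystine and cationic amino acids in kidney and gut, differed from each other in level. Slc7a9 had 473 ± 79 scaled counts per kb in WT and 445 ± 60.2 in the mutants. Slc3a1 had 19 reads in all WT libraries and 33 in all mutant libraries, too few for the test, and Prepl shares 26.5% of its exon length on the other strand. Slc7a11, the light chain that imports cystine for glutathione, was uneven within each genotype, with 7.42, 60.6, 24.3 and 85.2 in WT and 8.62, 24.9, 32 and 4.57 in the mutants (scaled counts, limma adjusted p = 0.391). The window with the paired TGATGCAA motifs printed above belongs to this gene.

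Sodium-coupled carriers of glutamine and other neutral amino acids moved in opposite directions. Slc38a4 takes up neutral amino acids, is expressed from the paternal allele in mouse, and is known from liver, placenta and yolk sac (chromosome 15, 96994820 to 97055956, minus strand). Its scaled counts were 3506, 2612, 3408 and 5396 in WT and 19752, 13644, 10078 and 14129 in the mutants. The lowest mutant, replicate 4, was well above the highest WT embryo, replicate 5. Slc38a4 rose 3.88-fold (limma log2 fold change 1.96, SE 0.24, adjusted p = 0.000915) and remained at 1.79 to 2.19 on the log2 scale over all alternatives. Per kb it moved from rank 8 of the 51 genes in WT (875 ± 277) to rank 1 in the mutants (3380 ± 938), where its range overlapped that of Slc3a2.

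Slc38a1, a glutamine carrier known from brain and placenta, lies on the same chromosome (96571418 to 96642913, minus strand). It had scaled counts of 4929.7, 4654, 4543 and 4124 in WT and 2772, 2395, 2066 and 3551 in the mutants. The genotypes did not overlap. Slc38a1 fell 1.72-fold (limma log2 fold change -0.79, SE 0.15, adjusted p = 0.008), a call lost in the Y-positive set at a similar log2 fold change (-0.84, adjusted p = 0.0557, the highest over all alternatives, with 3.34e-05 the lowest). Slc38a2, the carrier that amino acid shortage induces, lies between them and was 10434 ± 1228 in WT and 8869 ± 1704 in the mutants (adjusted p = 0.279). The gap from Slc38a1 to Slc38a2 is 44.5 kb and that from Slc38a2 to Slc38a4 295 kb, so of 3 neighbours on 1 strand 1 fell, 1 did not pass and 1 rose.

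The summed level of these 3 genes per kb was 2321 ± 225 in WT and 4540 ± 1116 in the mutants, 1.96-fold apart in the means and above the highest WT embryo in each mutant, with no test of the sum. Slc38a4 made up 30.7 to 50.2% of it in WT and 70.8 to 77.6% in the mutants. Slc38a2 made up 40.3 to 55.8% and 19.7 to 24.8%, and Slc38a1 9.49 to 13.5% and 2.69 to 4.4%. These shares depend on merged exon length, which was 17236 bases for Slc38a1 and 4261 for Slc38a4. Visceral endoderm markers, summed, overlapped between genotypes, as did those of extraembryonic ectoderm, which were uneven in the mutants. Mesoderm markers were 3.10-fold higher in summed level in the mutants. The part of any of these tissues in the rise of Slc38a4 was not tested.

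The other SLC38 genes gave no call with limma. Slc38a3, a glutamine carrier that also moves protons, was 181, 274, 126 and 103 in WT and 42, 45.1, 44.2 and 131 in the mutants. Mutant replicate 5 lay within the WT range and the other 3 mutants lay below it. Slc38a3 was just outside the threshold (log2 fold change -1.45, SE 0.43, adjusted p = 0.0522) and passed, lower, with median centring (0.0381), with DESeq2 (0.0199), without mutant replicate 5 (0.0123) and in the trimmed set (0.0318), within 0.0123 to 0.174 over all alternatives. Slc38a10 was 7815 ± 393 and 6514 ± 755 without overlap (log2 fold change -0.27, adjusted p = 0.0704), and passed with median centring (0.046), DESeq2 (0.0359) and without mutant replicate 1 (0.0387; up to 0.252 over all alternatives). Gm11769 shares 5.72% of its exon length on the other strand.

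The SLC38 carriers of the lysosome differed little. Slc38a9, which senses arginine for mTORC1, was 1261 ± 153 in WT and 1464 ± 219 in the mutants (scaled counts, limma adjusted p = 0.325), and Slc38a7, which exports glutamine from lysosomes, was 1538 ± 126 and 1838 ± 212 (adjusted p = 0.137). Slc38a5 was 53.1 ± 18.8 and 72 ± 12.7 (adjusted p = 0.332). Slc38a6 was uneven in WT, with 225, 1052, 198 and 537 in replicates 1, 2, 4 and 5 and 201 to 247 in the mutants (adjusted p = 0.287). Its high WT values were in replicates 2 and 5, those without Y-linked RNA. Slc43a3, a purine base carrier, also had a high WT replicate 2 (1323 against 276 to 467 in the other WT embryos), with 255 to 649 in the mutants.

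Among the SLC1 carriers Slc1a3 fell and the 4 others tested did not pass. Slc1a3 takes up glutamate and aspartate and is known from glia and retina (chromosome 15, 8634124 to 8710764, minus strand). Its scaled counts were 1302, 1160.4, 1104 and 1076 in WT and 187, 299, 330.4 and 287 in the mutants. The genotypes stood apart, and the spread within each was small. Slc1a3 fell 4.27-fold (limma log2 fold change -2.10, SE 0.18, adjusted p = 0.000154), with -2.28 to -1.92 over all alternatives. It supplied 91.8 to 97% of the summed level per kb of the 4 glutamate carriers Slc1a1, Slc1a2, Slc1a3 and Slc1a6 in WT and 76 to 92.1% in the mutants, while that sum went from 143 ± 12.3 to 38.9 ± 8.1. The part of epiblast content in it was not tested.

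Neither the neutral SLC1 carriers Slc1a5 and Slc1a4 nor the glutamate carriers Slc1a1 and Slc1a6 passed with limma. Slc1a5, a glutamine carrier of dividing cells, was 2959 ± 784 in WT and 3286 ± 576 in the mutants (scaled counts, limma adjusted p = 0.606). Its log2 fold change was 0.50 in the Y-positive set (limma adjusted p = 0.145). Slc1a4, which exchanges serine, alanine and cysteine, was 678 ± 89.7 and 622 ± 59.9 (adjusted p = 0.586). Slc1a1 was 15.4 ± 4.31 and 16.9 ± 20.8, with 48 in mutant replicate 5 and at most 8.62 in the other mutants, and 4430402I18Rik shares 31.9% of its exon length on the other strand. Slc1a6 was 11.7 ± 8.16 and 9.28 ± 4.16.

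**Figure D3:**
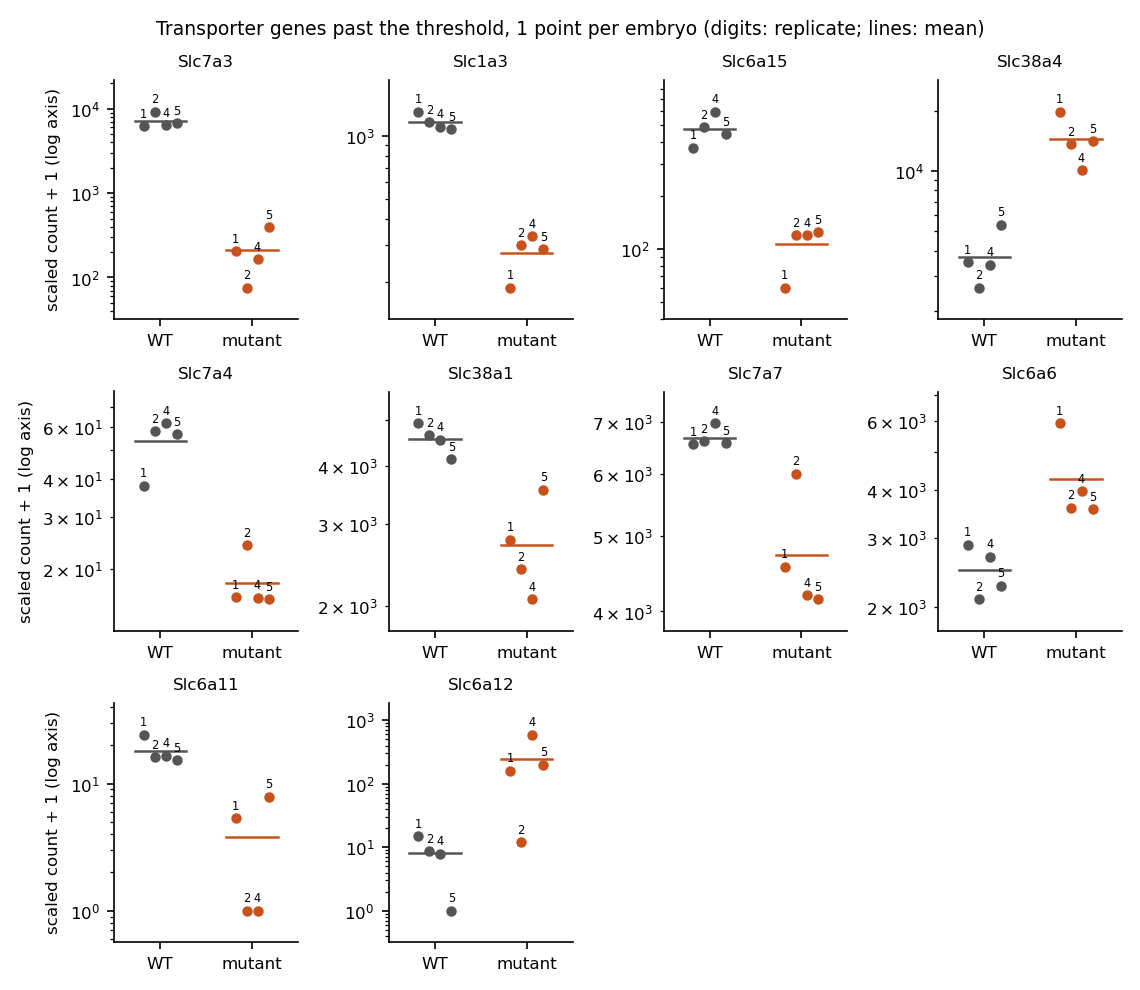
Scaled count + 1 on log axes of 10 amino acid transporter genes past the threshold, 1 point per embryo with its replicate number and a line at the mean of each genotype. The genotypes do not overlap in 9 panels, and in Slc6a12 1 mutant embryo lies within the WT range.

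In the SLC6 family 2 genes rose (18.2% of 11), 3 fell (27.3%) and 6 did not pass, against 8.03% and 7.55% of all genes. Without Slc6a11, which passed the filter only through WT, 2 of 10 fell, with the share of all genes left as it was. Slc6a12, 1 of the 2 genes that rose, met the filter through its mutant values alone, as WT reached it only in replicate 1. The share that rose is therefore not read as above that of all genes. Slc6a15, which takes up branched-chain amino acids and proline, was 372, 487, 594 and 444 in WT and 59.3, 119, 119 and 123 in the mutants (chromosome 10, 103367783 to 103419377, plus strand). Mutant replicate 1 was the lowest, and no mutant reached the WT range. Slc6a15 fell 4.60-fold (limma log2 fold change -2.20, SE 0.26, adjusted p = 0.000817), with -2.46 to -1.95 over all alternatives.

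Slc6a6, the taurine carrier, was 2883, 2089, 2688 and 2262 in WT and 5922, 3589, 3966 and 3557 in the mutants (chromosome 6, 91684053 to 91759066, plus strand). Each mutant was above each WT embryo, and mutant replicate 1 was the highest. Slc6a6 rose 1.69-fold (limma log2 fold change 0.76, SE 0.17, adjusted p = 0.0176), which missed the threshold without WT replicate 5 (0.0536) and in the Y-positive set (log2 fold change 0.58, adjusted p = 0.158; 0.000262 to 0.158 over all alternatives). Exons of Gm44981 on the other strand share 1.38% of its length.

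Slc6a11, a GABA carrier on chromosome 6, was low, with scaled counts of 23.2, 15.2, 15.6 and 14.2 in WT and 4.31, 0, 0 and 6.86 in the mutants. The genotypes did not overlap, and 2 mutants had no read. The log2 fold change was -2.80 (SE 0.74, limma adjusted p = 0.0321), in a gene that passed the filter only through its WT values. It was -1.59 with a pseudocount of 5 and -3.32 with 0.5.

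The Slc6a11 call was not stable. It was lost in 11 of the 17 alternatives whose filters it passed, namely with edgeR (adjusted p = 0.061), DESeq2 (0.0565) and the replicate block (0.0535), without WT replicate 1 (0.0871), 2 (0.0651), 4 (0.0734) or 5 (0.0681), without mutant replicate 2 (0.061) or 4 (0.0719), in the trimmed set (0.05002) and in the Y-positive set (0.144). It was 0.0154 at the lowest. Slc6a13, another GABA carrier, was 43.2 ± 7.44 and 30.3 ± 12.4 (scaled counts, adjusted p = 0.306).

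Slc6a12, a carrier of betaine and GABA, was low in WT (13.9, 7.58, 6.93 and 0) and uneven in the mutants, with 159 in replicate 1, 11.1 in replicate 2, 591 in replicate 4 and 199 in replicate 5. Mutant replicate 2 lay within the WT range and the other 3 lay above it. Slc6a12 rose with a log2 fold change of 4.45 (SE 1.21, limma adjusted p = 0.036), which was 3.62 with a pseudocount of 5 and 2.96 in the trimmed set. Its call was lost with the replicate block (0.058), without WT replicate 1 (0.0511), 2 (0.0618), 4 (0.073) or 5 (0.0872), without mutant replicate 1 (0.0705), 4 (0.0876) or 5 (0.0875), in the trimmed set (0.229) and in the Y-positive set (0.193), over a range of 0.000418 to 0.229.

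The mutant embryos ranked 4, 5, 1 and 2 from high to low in Slc6a12, which is also their order in the summed decidua markers. The share of all genes with this order was not counted. Slc6a8, the creatine carrier, had that order too, with 379, 279, 1214 and 723 in mutant replicates 1, 2, 4 and 5 and 174 to 264 in WT. The genotypes did not overlap, and the difference did not pass with limma (log2 fold change 1.32, SE 0.41, adjusted p = 0.0607). It passed with edgeR (0.0403), DESeq2 (0.00138) and without mutant replicate 2 (0.0184), and the log2 fold change was 0.55 in the trimmed set. Slc6a2, the noradrenaline carrier, was also highest in mutant replicates 4 (380.3) and 5 (127), with 25.9 and 13.8 in the other 2 and 7.1 to 119 in WT (adjusted p = 0.787). Lum, 1 of the 9 decidua markers, was at 0 in every WT library. The part of maternal tissue, or of mesoderm, in these values was not tested.

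**Figure D4:**
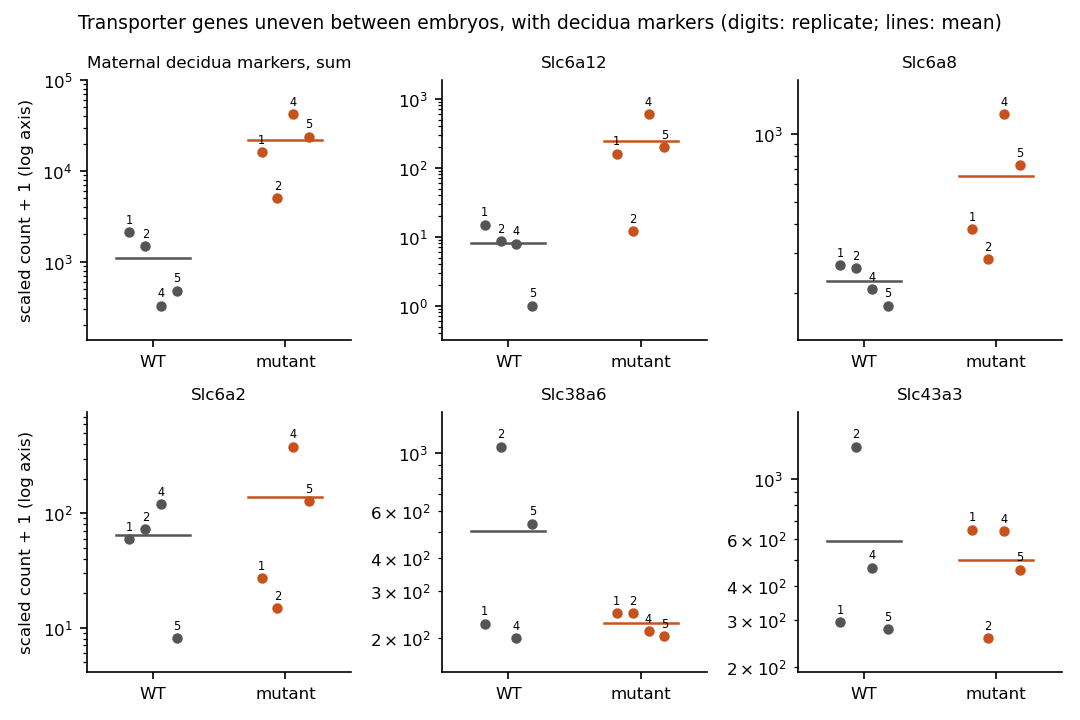
Scaled count + 1 on log axes of the summed maternal decidua markers and of 5 transporter genes that were uneven between embryos, 1 point per embryo with its replicate number and a line at the mean of each genotype. Mutant replicates 4 and 5 are the highest for the decidua markers, Slc6a12, Slc6a8 and Slc6a2, and WT replicate 2 is the highest WT embryo for Slc38a6 and Slc43a3.

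The remaining genes differed little or were low. Slc6a9, a glycine carrier, was 31.1 ± 7.74 in WT and 49.7 ± 20.1 in the mutants (scaled counts, limma adjusted p = 0.31), with exons that share 27.8% of their length with Ccdc24 on the other strand. Slc6a4, the serotonin carrier, was 27.5 ± 18.1 and 46.6 ± 24.4 (adjusted p = 0.342), and Slc6a17, a vesicular carrier of neutral amino acids in neurons, 22.4 ± 3 and 30.6 ± 27.6 (adjusted p = 0.917). The proton-coupled carriers Slc36a1 and Slc36a4 were 123 ± 26.1 and 174 ± 13.9 in WT and 107 ± 14.4 and 207 ± 26.5 in the mutants (adjusted p = 0.587 and 0.356). Slc43a2 and Slc43a1, which let large neutral amino acids pass down their gradient, were 3441 ± 168 and 392 ± 57.6 in WT and 3250.1 ± 478 and 465 ± 136 in the mutants (adjusted p = 0.603 and 0.556).

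The 10 genes that did not pass the filter held few reads. Slc36a2 had 19 reads in all WT libraries and 0 in the mutants. Against a floor of 3 reads over the mutant libraries, the WT reads were 5.94-fold higher after scaling. That ratio leaves out the counting error of the WT reads. Slc38a8 had 1 WT read and 26 mutant reads (WT over mutant 0.0361, counting interval 0.00088 to 0.22). Slc3a1 and Slc7a14 are given above, and Slc1a2, Slc6a14, Slc6a16, Slc6a18, Slc6a19 and Slc7a15 had 5 to 19 reads in each genotype. These 6 were not tested.

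Level and direction can be set side by side. The summed level per kb of all 51 genes was 18284 ± 946 in WT and 17601 ± 1981 in the mutants, with overlap between genotypes. Among the 16 tested genes with a mean scaled count of at least 1000, 2 rose (12.5%), 3 fell (18.8%) and 10 differed by less than 1.2-fold, against 6.4% higher and 8.16% lower among all 6374 genes of that level. Among the 25 lower ones 1 rose (4%), 5 fell (20%) and 8 differed by less than 1.2-fold, against 9.16% and 7.13% of 9226 genes. Without Slc6a11 4 of 24 of them fell (16.7%), with the share of all genes left as it was. In the order per kb, Slc7a3 was at rank 4 in WT, where its range overlapped those of Slc7a5 above and Slc7a8 below, and at rank 21 in the mutants. Slc7a7 went from rank 2 to 5, Slc1a3 from 17 to 23, Slc6a15 from 22 to 29 and Slc6a6 from 14 to 10.

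**Figure D5:**
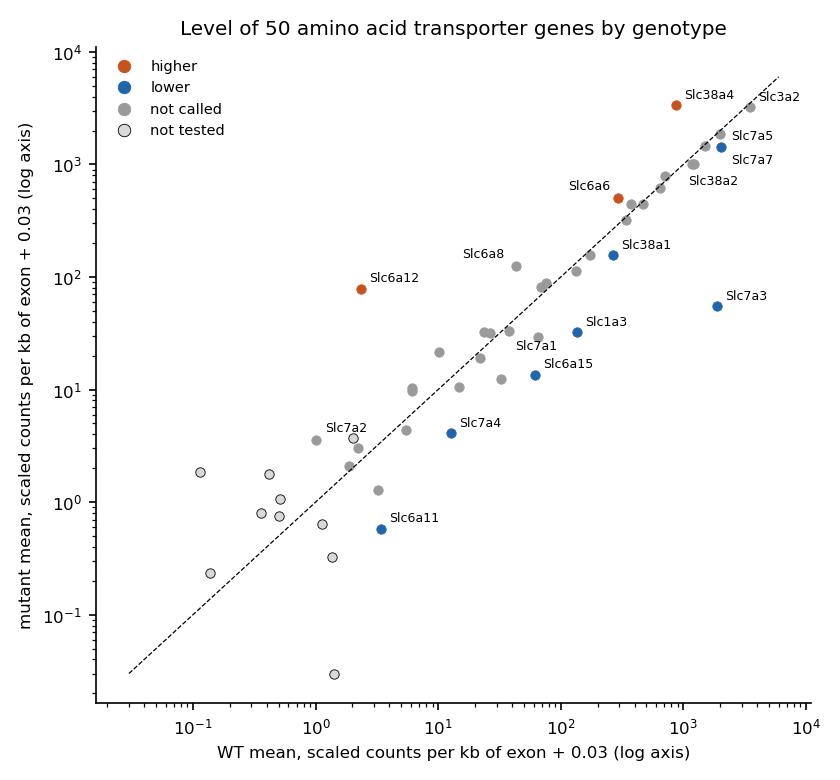
Mean scaled counts per kb of exon of 50 amino acid transporter genes in WT (x) and mutant (y) embryos, with 0.03 added, on log axes and with a dashed line of equality. Slc7a3 lies far below the line at 1885 in WT and 55.5 in the mutants, Slc38a4 lies above it at 875 and 3380, and the genes of high level near the line include Slc3a2 and Slc7a5.

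Lists of genes that make, sense or use amino acids were counted in the same fit. Of 25 tested genes of the response to amino acid shortage driven by ATF4, 3 rose (12%) and 2 fell (8%), against 8.03% and 7.55% of all genes. Asns, which makes asparagine, rose from 4354 ± 418 to 7456 ± 516 (limma log2 fold change 0.78, SE 0.08, adjusted p = 0.000443), and Vldlr and Gpt2 rose 3.05-fold and 1.48-fold. Phgdh and Mthfd2, of serine and folate metabolism, fell 1.34-fold and 1.25-fold. In the Y-positive set 2 rose and 0 fell (all genes 3.38% and 3.16%), and in the trimmed set, 2 and 2 (4.53% and 4.63%). The lower count was 1 when any single library but mutant replicate 4 was left out. Of the 3 carriers with the TGATGCAA motif, Slc7a7 fell and Slc1a4 and Slc7a11 did not pass.

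Of 38 tested genes through which amino acids act on mTORC1, 8 fell (21.1%, against 7.55% of all genes) and none rose with limma and edgeR, and 9 fell and 0 rose with DESeq2. At an unadjusted p under 0.05 limma gave 1 higher and 9 lower. Rragb and Rragd encode GTPases that recruit mTORC1 to lysosomes. Rragb fell from 1683 ± 78.9 to 479 ± 126 (limma log2 fold change -1.84, SE 0.16, adjusted p = 0.000178) and Rragd from 4308 ± 269.8 to 1192 ± 327 (-1.90, SE 0.19, 0.000303). Deptor, an mTOR inhibitor, fell from 962 ± 83 to 449 ± 97.4 and Gatsl2 from 1779 ± 160.1 to 1079 ± 183. Mtor, Rptor and the tested Lamtor genes did not pass. The Y-positive set gave 4 lower (Rragb, Rragd, Deptor and Gatsl2), or 10.5%, against 3.16% of all genes. The trimmed set gave 5 lower, with Seh1l added, or 13.2%, against 4.63% of all genes. The lower count was 5 without WT replicate 1, WT replicate 4 or mutant replicate 5, and 1 gene was called higher without WT replicate 2. The median log2 fold change of the list was -0.045, against -0.0018 for all genes.

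Of 32 tested genes of amino acid synthesis and breakdown 5 rose (15.6%) and 4 fell (12.5%), against 8.03% and 7.55% of all genes. Pycr1, which makes proline in mitochondria, rose from 515 ± 52.5 to 1635 ± 318 (limma log2 fold change 1.65, SE 0.15, adjusted p = 0.000186), and Asns, Glul, Oat and Gpt2 also rose. Bcat2, Got1 and Phgdh were among the genes that fell. In the Y-positive set 2 rose and 3 fell (all genes 3.38% and 3.16%), and in the trimmed set, 4 and 4 (4.53% and 4.63%). Without WT replicate 1 the higher count was 3.

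Of 16 tested genes of glutathione synthesis and cystine use 4 fell (25%, against 7.55% of all genes) and 1, Gpx4, rose 1.40-fold (6.25%, against 8.03%). Gclc, the catalytic subunit of the first enzyme of glutathione synthesis, fell from 3932 ± 288 to 2643 ± 171 (limma log2 fold change -0.57, SE 0.08, adjusted p = 0.00133), and Cbs, Txnrd1 and Gclm fell 2.23-fold, 1.25-fold and 1.41-fold. The Y-positive set gave 2 lower (12.5%) and none higher, against 3.16% and 3.38% of all genes. The trimmed set gave 3 lower (18.8%) and none higher, against 4.63% and 4.53%. The lower count was 2 without WT replicate 1 or 4, and Gpx4 no longer passed when WT replicate 1, 4 or 5 or mutant replicate 2 was dropped. Of 20 cytosolic tRNA synthetases 2, Tars and Lars, fell 1.26-fold and 1.16-fold with limma (10%, against 7.55% of all genes). None rose with limma, edgeR or DESeq2. At an unadjusted p under 0.05 limma gave 1 higher and 6 lower. In the Y-positive set 0 synthetases passed (0 higher and 3 lower at an unadjusted p under 0.05). In the trimmed set only Tars did (5% lower, against 4.63% of all genes). When WT replicate 1, 4 or 5 was dropped, 1 passed.

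Of 20 tested amino acid carriers outside the 51, all but Slc6a20b (which did not pass) from other families, 3 rose (15%) and 1, which passed the filter only through WT, was called lower (5%), against 8.03% and 7.55% of all genes. Sfxn3, a mitochondrial serine carrier, rose from 42.9 ± 12.4 to 363 ± 317, Slc25a29, a mitochondrial carrier of basic amino acids, from 112 ± 11 to 486 ± 397, and Mfsd12, which brings cysteine into lysosomes, 1.25-fold. Slc17a6, a vesicular glutamate carrier, was the lower one, with 25.6 ± 16.3 in WT and 2.99 ± 3.49 in the mutants. These calls were not stable: the higher count was 0 without WT replicate 4 and 1 without WT replicate 1, WT replicate 5 or mutant replicate 5, and the lower one was 0 without any single WT library or without mutant replicate 2 or 5. In the trimmed set only Mfsd12 passed (5% higher, against 4.53% of all genes). None did in the Y-positive set (4 higher and 1 lower at an unadjusted p under 0.05). The median log2 fold change of these 20 was 0.0073.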

How the data were processed

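Column-purified RNA of whole embryos was turned into cDNA by SMART-Seq v4 with 12 cycles of amplification, and KAPA Hyper Prep made the libraries, per the labels' protocols. As the kit does not mark strand, overlapping genes on opposite strands share reads that cannot be assigned. The submitters' processing notes name cutadapt 1.6, STAR 2.5.0a, HTSeq 0.5.3, DESeq and the mm10 build. Settings, annotation release and the handling of multiply mapped reads: not given in the sources used here. The authors deposited a signal with no negative values, which is gene counts divided by 1 DESeq size factor per library. Each library held whole multiples of 1 step (0.866 to 1.18 scaled counts per read), and after division by it 100% of values lay within 0.01 of a whole read, so reads were recovered. No pair of replicates agreed within sampling noise (chi-square per degree of freedom 17.3 to 75.3). Without molecular identifiers, counting intervals reflect counting error alone.

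The main test was limma 3.58.1 (R 4.3.3) on log2(scaled count + 1), two-sided, with a trended variance prior and Benjamini-Hochberg adjustment over 15600 genes, those that reached a scaled count of 10 in 4 or more libraries. Folds are 2 to the power of the log2 fold change on that scale, on which low genes change less. On the recovered reads edgeR 4.0.16 (quasi-likelihood) called 1261 genes higher and 1169 lower and DESeq2 1.42.0 1832 and 1606, against 1253 and 1178 with limma. After median centring limma called 1029 and 1590, so that 39.3% of calls were higher against 51.5%. The other alternatives were pseudocounts of 0.5 and 5, all genes unfiltered, only genes with a mean of 50 or more, the replicate block, each library left out, the Y-positive set and the trimmed set. The script was tested on simulated counts with known changes. Levels per kb divide by merged exon length in GENCODE M21 (GRCm38, the mm10 assembly), which may not be the release used for counting, and all 51 IDs matched. Coordinates come from there and promoter sequences from RefSeq on GRCm38.p6.

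The members and lists were chosen with earlier results of these data known. All members are named apart from 1, and that gene and 1 list gene are not reported here, though both are counted. From each list up to 4 genes past the threshold with the smallest p in the main direction are named, and the rest named to make up small counts were chosen after their values were seen. Replicate numbers, taken from the column names, did not pair the samples: correlations of same-numbered deviations were -0.04, -0.17, -0.19 and -0.05.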

Additional observations from a re-analysis of the deposited data

Results flagged for a closer look

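In 4 of the 82 groups of 4 values examined for the tested genes, 1 library lay far from the other 3 of its genotype. Chance alone flags about 1 in 20 such groups. Slc38a3 was 131 in mutant replicate 5 and 42 to 45.1 in the other mutants. Slc6a15 was 59.3 in mutant replicate 1 and 119 to 123 in the other mutants. Slc7a4 was 23 in mutant replicate 2 and 14.9 to 15.1 in the others. Slc7a7 was 6981 in WT replicate 4 and 6564 to 6615 in the other WT embryos. All are scaled counts. The calls of Slc6a15, Slc7a4 and Slc7a7 held without the library that stood apart, and that of Slc38a3 was gained without it.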

How the results depend on the processing

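The count of transporter genes higher in the mutants, 3 in all 8 libraries, was 5 with edgeR, 5 with DESeq2 and 1 in the Y-positive set, and ran from 1 (without WT replicate 5) to 4 (without mutant replicate 2) as single libraries were left out. The count of lower genes, 8, was 5 among genes whose mean was 50 or more, 3 in the Y-positive set and 5 in the trimmed set, and ran from 6 to 9 as single libraries were left out. With the replicate block 2 rose and 6 fell, and since the numbers only name samples this says nothing of the strength of an effect. The causes were not tested, but the subsets hold fewer samples and the higher mean left fewer genes (30 transporters). Over all single genes and alternatives 644 values kept their direction and their side of the threshold, 40 lost a call, 14 gained one and 29 changed sign. No called gene changed sign. The log2 fold changes that did belonged to uncalled genes, and the causes were not tested. In the Y-positive set they were 0.0931 for Slc38a6, 0.004 for Slc7a11, 0.10 for Slc7a9, -0.35 for Slc6a2 and 0.35 for Slc43a3. In the trimmed set they were 0.0687 for Slc43a2, 0.0375 for Slc7a6, 0.0885 for Slc7a9, -1.18 for Slc6a2, 0.0441 for Slc7a8 and 0.0142 for Slc1a6. With edgeR and DESeq2 they were 0.12 and 0.13 for Slc1a1 and 0.43 and 0.45 for Slc6a17. As single libraries were left out they ran from -0.13 to 0.0116 for Slc7a6, -0.40 to 0.07 for Slc7a1, -0.28 to 1.28 for Slc6a2, -0.21 to 0.0915 for Slc7a8, -0.56 to 0.23 for Slc1a6, -0.66 to 0.35 for Slc6a17 and -0.27 to 0.49 for Slc43a3. The 10 genes that were not tested had too few reads for the filter.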
